A study of Homo sapiens with 52 samples.

Results

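ESCRT, short for endosomal sorting complex required for transport, is a set of protein complexes that bud and cut membranes from the inner side of the neck, and that at a wounded plasma membrane shed the damaged patch. ESCRT-0 gathers ubiquitinated cargo on endosomes, ESCRT-I and ESCRT-II pass it on, ESCRT-III polymerises into the filaments that narrow the neck, and the ATPase VPS4 takes those filaments apart. At a wound, Ca2+ entering the cell binds ALG-2 (PDCD6), which with its partner ALIX (PDCD6IP) brings ESCRT-III to the site. The same ESCRT-III filaments close the bridge between dividing cells and reseal the nuclear envelope. Transcripts of 32 genes of this machinery, chosen by gene symbol from 59408 genes listed, were followed in WI-38 cells.

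WI-38 is a line of human embryonic lung fibroblasts, and every group was cultured in the same medium. For PMD-Sen the cells were exposed to SDS at 0.0090%, a dose of detergent chosen to wound the plasma membrane. For Ca2+-Sen they were exposed to 75 mM KCl, which depolarises the membrane, and for DDR-Sen to 250 nM doxorubicin (DXR), which damages DNA. Each exposure lasted 24 h. Cells were collected when it ended (day 0), on each of days 1 to 4 following the wash and then on days 6, 8 and 16. Cells in replicative senescence (RS) had been passaged to a population doubling level near 52, and the untreated young cells were at levels of 32 to 46. mRNA sequencing gave 2 libraries in each of 26 groups, 52 in all. One untreated group served all 25 comparisons, so that its error enters each of them and cells left untreated for the same number of days were not analysed here.

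The files held no value of a single library. They gave the mean normalised count of each gene over the libraries of a comparison and the log2 fold change against untreated cells with its standard error (SE). From these the mean level of each group was computed, in normalised counts on a scale shared by all groups. Summed over all genes, that level ranged from 27.9 M in KCl day 0 to 29.7 M in RS. Of the 59408 genes, 15479 had a mean level of at least 10 and were tested, and a gene was called higher or lower at an adjusted p under 0.05 (Wald test, Benjamini-Hochberg over all tested genes). Of the 32 members 30 were tested. Normalised counts are shares of the RNA sequenced, so fewer cells and less RNA per cell cannot be told apart from them. All 10 fibroblast markers were present in every group, the lowest at 824 normalised counts, but their level moved too. They summed to 756658 in untreated cells, 647162 on day 0 of SDS (1 higher and 7 lower of 10, median log2 fold change -0.95), 333160 on day 0 of KCl (3 higher and 6 lower, -0.33) and 742438 on day 0 of DXR (0 higher and 2 lower, -0.083), and their part in the members' changes was not tested. The 4 epithelial markers summed to 2.82 to 27.6, the 3 endothelial markers to 32.4 to 219.6 and the 4 white blood cell markers to 15.7 to 257.9, the last led by CD14, and each of these lists held a gene at 0 in some group. The endothelial sum was 46.3 in untreated cells and highest on day 0 of KCl, at 219.6. On that day 1 of the 2 tested endothelial markers was called higher (log2 fold changes of 0.92 and 5.71), and their part in the members' changes was not tested. CD14 was at 27.4 in untreated cells and was called higher on day 8 of KCl (255.9), day 16 of SDS (241.7), days 0, 8 and 16 of DXR (65.2, 113.7 and 229.9) and in RS (251.9).

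Members that recur below are shown here by the stretch upstream of their transcription start: CHMP2B, which rose most on day 0 of SDS, UBAP1 and VPS25, which changed on day 0 of KCl, and CHMP1B, called most often. The stretches were taken from RefSeq promoter windows on GRCh38.p14 and are written 5′ to 3′ on the gene's strand, with motif matches in capitals. UBAP1 (chr9:34178793-34179014, plus strand), CHMP1B (chr18:11851163-11851405, plus strand), CHMP2B (chr3:87227059-87227280, plus strand) and VPS25 (chr17:42773199-42773445, plus strand) each end within or just before the first exon.
UBAP1: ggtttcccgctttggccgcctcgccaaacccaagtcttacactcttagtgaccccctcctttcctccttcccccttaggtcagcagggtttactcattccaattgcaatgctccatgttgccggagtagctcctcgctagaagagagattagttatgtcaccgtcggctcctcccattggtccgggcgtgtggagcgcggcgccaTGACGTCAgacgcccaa
CHMP1B: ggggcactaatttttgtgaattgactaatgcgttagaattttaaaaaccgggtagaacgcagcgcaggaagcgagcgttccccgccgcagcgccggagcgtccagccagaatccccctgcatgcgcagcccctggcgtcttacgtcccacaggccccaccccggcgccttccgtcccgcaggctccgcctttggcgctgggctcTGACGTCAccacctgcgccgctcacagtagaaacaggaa
CHMP2B: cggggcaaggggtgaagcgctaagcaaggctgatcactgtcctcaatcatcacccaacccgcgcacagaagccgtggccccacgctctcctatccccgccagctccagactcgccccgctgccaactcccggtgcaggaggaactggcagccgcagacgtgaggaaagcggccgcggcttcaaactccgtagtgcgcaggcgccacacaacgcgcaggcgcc
VPS25: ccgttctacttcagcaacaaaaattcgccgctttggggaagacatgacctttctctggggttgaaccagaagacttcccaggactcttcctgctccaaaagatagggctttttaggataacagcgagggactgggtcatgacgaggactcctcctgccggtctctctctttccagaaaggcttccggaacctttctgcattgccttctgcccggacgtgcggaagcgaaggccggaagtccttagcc
The motif in capitals is the cyclic AMP response element TGACGTCA, bound by CREB and ATF factors. It was present on either strand in 3 of the 29 windows of the 25 members with a window (UBAP1, CHMP1B and VPS37B). Of all 35116 windows of 250 bases before a start, 1.65% held it. On day 0 of KCl the log2 fold changes were 1.07 ± 0.11 for UBAP1 and 0.89 ± 0.15 for CHMP1B, while VPS37B was not called (0.13 ± 0.12, adjusted p = 0.41), and of the other members called higher STAM2, MVB12B, CHMP4B and IST1 have windows without the motif. On day 0 of SDS and of DXR the log2 fold changes were 0.67 and 0.79 for CHMP1B, both called. They were 0.25 and 0.037 for UBAP1, neither called, and -0.54 and -0.020 for VPS37B. In UBAP1 the motif began 45 bases and in CHMP1B 46 bases before the RefSeq start of the window shown. These offsets depend on the start chosen. GENCODE 29 places the first base of UBAP1 at 34179005 and that of CHMP1B at 11851396, both upstream of those RefSeq starts. UBAP1 has a further window in the table, shifted upstream so that the motif is cut at its end. The AP-1 motif TGANTCA was found in IST1 among the members (6.57% of all windows), the E-box CACGTG in CHMP4A, PDCD6IP, VPS36 and VPS37B (6.34%), and the heat shock motif GAANNTTC in MVB12A (5.78%). The printed stretches of CHMP2B and VPS25 hold none of these letters. The motifs were chosen with the expression values known, and a match is a description of sequence, not a site of binding.

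Untreated cells carried nearly the whole machinery. Per kilobase of exon (GENCODE 29), CHMP4B, the main filament-forming subunit of ESCRT-III, had the highest level of the 32 members at 2251 normalised counts per kb. It was followed by CHMP1A at 1078 and CHMP2A at 943. VPS28, a core subunit of ESCRT-I, was the lowest tested member at 21.0 per kb, from only 79.0 normalised counts, and its SE was 0.38 to 0.59 on the log2 scale where that of CHMP4B was 0.08 to 0.14. PDCD6 followed at 26.2 per kb. The 2 paralogues of CHMP4B were barely listed, CHMP4A at 1.71 and CHMP4C at 1.86 normalised counts in untreated cells, and both stayed under the limit for testing. CHMP4A ranged from 0.14 to 4.26 over the other groups and CHMP4C from 0.15 to 11.3. In GENCODE 29, 68.8% of the exon bases of CHMP4A (chr14:24209583-24213869, minus strand) are shared with 2 other genes on the same strand (the strand and overlap settings of the counting are not given), and its count is uncertain for it. Of the other members, VPS4A shares 36.4% and VPS37B 36.0% of its exon bases with other genes, and their counts are less certain for it. Summed over the 32 members, the level was 52361 in untreated cells and ranged from 49087 (KCl day 8) to 57427 (SDS day 2).

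**Figure D1:**
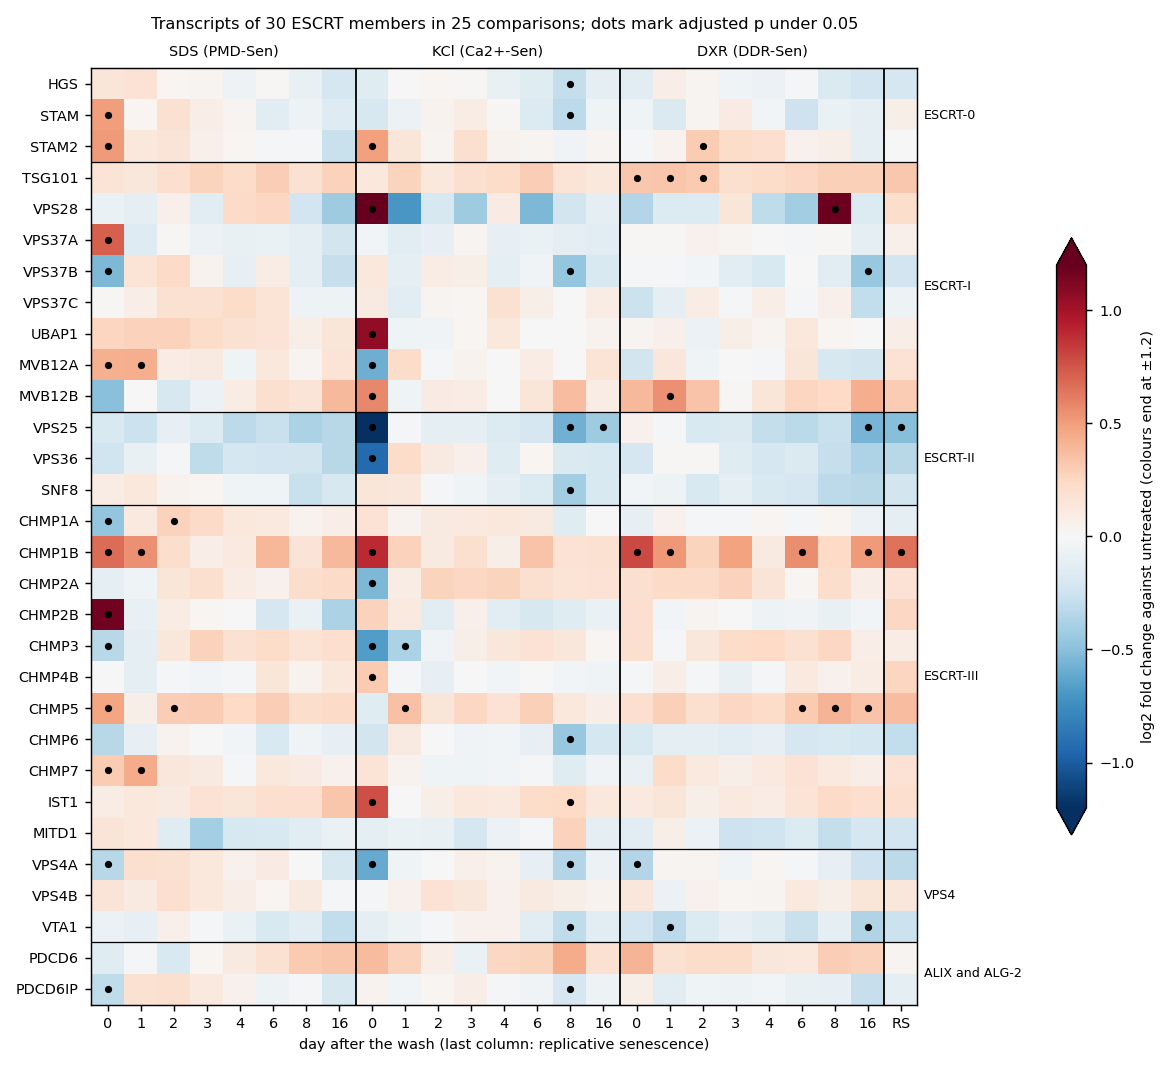
Log2 fold change against untreated cells of the 30 tested members (rows, grouped by complex) in the 25 comparisons (columns, day after the wash and RS). Dots mark adjusted p under 0.05. Dots gather on day 0 of SDS and of KCl (13 each) and on day 8 of KCl (10), and the row of CHMP1B holds 8.

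In SDS, the exposure meant to wound the plasma membrane, the calls among these transcripts fell on days 0 to 2. On day 0, 13 of 30 members were called, 8 higher and 5 lower, where 19.0% and 19.3% of all tested genes were called higher and lower. The members' median log2 fold change was 0.051 and that of all tested genes -0.0056. On day 1 there were 3 higher and 0 lower (background 9.25% and 9.51%) and on the following day 2 higher and 0 lower (8.43% and 6.69%). From day 3 on, 0 members were called, while 5, 3, 3, 1 and 3 members had an unadjusted p under 0.05 on days 3, 4, 6, 8 and 16. The deposited adjusted p gave 0 on those days too. All tested genes were called higher and lower at 5.13% and 5.79% on day 3, 6.93% and 8.00% on day 4, 5.48% and 6.62% on day 6, 5.47% and 5.77% on day 8 and 9.26% and 11.0% on day 16. The later days of SDS still had calls across the genome, without a member of the machinery among them. The largest change in size that was not called was 0.41, 0.32, 0.40, 0.38 and 0.42 on days 3, 4, 6, 8 and 16. On day 0 the smallest change called was 0.30. The counts of 0 thus do not show that the members were unchanged.

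CHMP2B, an ESCRT-III subunit that helps recruit VPS4, rose most on day 0 of SDS. Its level was 921 in untreated cells and 2057, 865, 982, 936, 924, 799, 869 and 709 on the successive days of SDS from 0 to 16. The log2 fold change on day 0 was 1.16 ± 0.13 (SE; adjusted p = 1.5e-16). By day 1 the level was near the untreated one, and the fall from day 0 to day 1 was -1.25 ± 0.20 (adjusted p = 4.1e-09). On day 0 of KCl it was 1114 and on day 0 of DXR 1056, and neither was called. The rise in SDS exceeded that in KCl by 0.89 ± 0.19 (adjusted p = 1.2e-05) and that in DXR by 0.96 ± 0.19 (adjusted p = 6.8e-06).

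VPS37A, 1 of the interchangeable VPS37 subunits of ESCRT-I, followed the same course. It stood at 1508 in untreated cells and at 2474, 1355, 1519, 1438, 1417, 1426, 1387 and 1298 on days 0 to 16 of SDS, so that only day 0 was apart. The log2 fold change on day 0 was 0.71 ± 0.12 (adjusted p = 7.1e-08) and lay above that in KCl by 0.74 ± 0.17 (adjusted p = 7.5e-05) and above that in DXR by 0.70 ± 0.18 (adjusted p = 4.7e-04). Its paralogue VPS37B moved the other way, from 1481 to 1016 normalised counts (-0.54 ± 0.14, adjusted p = 4.3e-04), with levels of 1016, 1663, 1739.7, 1529, 1383, 1576, 1379.7 and 1220.2 over the successive days. VPS37C went from 916 to 925, and its interval on day 0 (-0.30 to 0.32) spanned 0.

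The ESCRT-0 adaptors STAM and STAM2, which hold ubiquitinated cargo together with HGS, both rose in SDS. STAM went from 1303 to 1849.8 (0.50 ± 0.13, adjusted p = 4.3e-04) and STAM2 from 1741 to 2483 (0.51 ± 0.12, adjusted p = 1.1e-04). In KCl STAM2 rose to 2452 (0.50 ± 0.10, adjusted p = 7.6e-06) and STAM, not called, stood at 1138 (-0.43 to 0.036). HGS itself, at 3930.2 in untreated cells, was 4343 in SDS and 3543 in KCl on day 0, and neither was called.

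Among the other ESCRT-III genes, CHMP5, CHMP1B and CHMP7 rose and CHMP1A and CHMP3 fell on day 0 of SDS. CHMP7, which nucleates ESCRT-III at the nuclear envelope, rose from 1755 to 2171 on day 0 (0.31 ± 0.12, adjusted p = 0.032) and 2386 on day 1 (0.44 ± 0.11, adjusted p = 6.7e-04). MVB12A, an ESCRT-I subunit, did the same, at 631 in untreated cells and 849.6 and 855 on days 0 and 1 (adjusted p = 0.029 and 0.030). These 2 and CHMP1B were the members called on both days. CHMP1A fell from 3457 to 2495 on day 0 (-0.47 ± 0.11, adjusted p = 8.6e-05) and was higher than untreated on day 2, at 4194 (0.28 ± 0.09, adjusted p = 0.016). Over the course of SDS it stood at 2495, 3742, 4194, 4057, 3783, 3761, 3566 and 3649, back near the untreated level by day 8.

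CHMP4B, ALIX, ALG-2, both VPS4 ATPases and VTA1 were not called higher on any day of SDS, while the ESCRT-III genes CHMP2B, CHMP1B, CHMP5 and CHMP7 described above were. CHMP4B was 3704 in untreated cells and 3683, 3428, 3672, 3622, 3668, 4086, 3825 and 4037 on days 0 to 16, and its log2 fold change on day 0 had a 95% interval of -0.21 to 0.20. ALIX fell, from 6896 to 5600.3 on day 0 (-0.30 ± 0.10, adjusted p = 0.010), and was 7809 on day 1. For ALG-2 (PDCD6) the levels were 249 untreated and 224 on day 0, with a wide interval (-0.70 to 0.41). The ATPase VPS4A fell from 1701 to 1352 (-0.33 ± 0.13, adjusted p = 0.038). Its paralogue VPS4B stood at 1940.0 and 2161 (-0.078 to 0.39). VTA1, the cofactor of VPS4, was 2252 and 2148, and was not called.

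**Figure D2:**
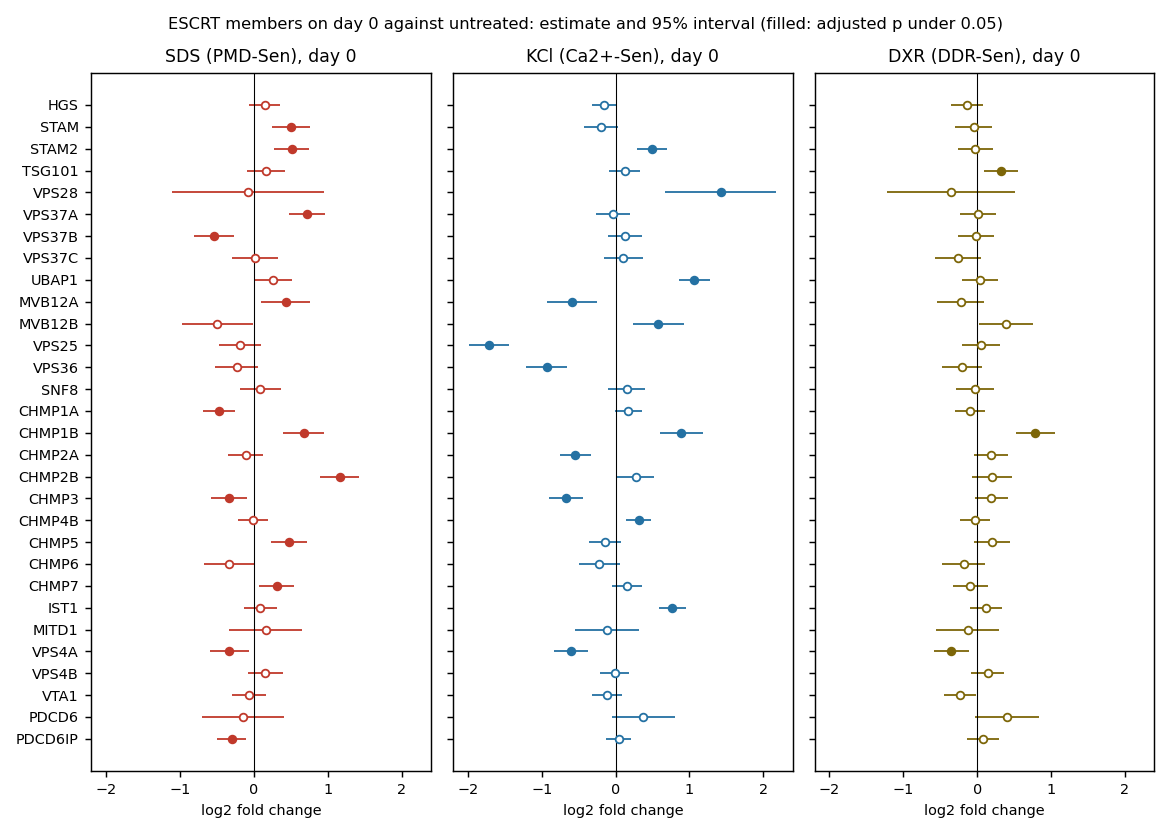
Log2 fold change on day 0 of SDS, KCl and DXR (panels) for the 30 tested members, with 95% intervals. Filled points were called at adjusted p under 0.05: 13 in SDS, 13 in KCl and 3 in DXR. CHMP2B is the rightmost point in SDS and VPS25 the leftmost in KCl.

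KCl on day 0 also called 13 of 30 members, 7 higher and 6 lower, where 23.0% and 25.5% of all tested genes were called higher and lower, with a members' median of 0.077. Read against the background, the counts in SDS and KCl say nothing particular about the machinery as a whole, and what follows is which members moved. The comparisons share the untreated libraries, so their calls were not set against each other and differences were tested directly.

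The ESCRT-II complex, which bridges ESCRT-I to the ESCRT-III subunit CHMP6, held the largest falls in KCl. VPS25 went from 1427 in untreated cells to 436 on day 0, 0.31 of the untreated level (-1.71 ± 0.14, adjusted p = 1.1e-33). VPS36 went from 1107 to 580.2 (-0.93 ± 0.14, adjusted p = 6.5e-10), and its levels over the course of KCl were 580.2, 1289, 1191, 1153, 1005, 1123, 984 and 975. The remaining subunit, SNF8, was at 1139 and 1262, and its interval (-0.097 to 0.40) held no fall of that size. VPS25 stood at 436, 1410.1, 1326, 1319, 1276, 1238, 957 and 1059 on days 0 to 16 of KCl, so the deep fall was gone on day 1 (day 1 minus day 0 1.69 ± 0.18, adjusted p = 8.3e-19). In SDS its day 0 level was 1255 and in DXR 1476. The KCl fold change lay below that in SDS (SDS minus KCl 1.53 ± 0.20, adjusted p = 5.4e-13) and below that in DXR (KCl minus DXR -1.76 ± 0.19, adjusted p = 1.2e-18).

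Subunits of ESCRT-I moved in both directions in KCl. UBAP1, the subunit that directs ESCRT-I to endosomal sorting, went from 1566 to 3284 on day 0 (1.07 ± 0.11, adjusted p = 1.3e-21) and stood at 3284, 1507, 1520.1, 1596, 1709, 1565, 1567 and 1609.9 over the course, so that only day 0 was high. The rise exceeded that in SDS, where the level was 1868 (SDS minus KCl -0.81 ± 0.17, adjusted p = 1.2e-05). MVB12B rose from 369 to 552 (0.58 ± 0.18, adjusted p = 0.0029) while its paralogue MVB12A fell from 631 to 420.3 (-0.59 ± 0.17, adjusted p = 0.0022). In SDS the paralogues stood the other way round, MVB12A at 849.6 and MVB12B at 261 (-0.98 to -0.016, adjusted p = 0.099), and both differed between the exposures (SDS minus KCl 1.02 ± 0.24 for MVB12A, adjusted p = 1.4e-04, and -1.08 ± 0.30 for MVB12B, adjusted p = 0.0016). VPS28 had the largest rise, 1.42 ± 0.38 (adjusted p = 6.8e-04), but from a level of 79.0 to 212, and its course in KCl was 212, 48.9, 69.2, 59.0, 85.0, 54.5, 67.7 and 72.7. It was the member with the widest interval and fell outside the genes tested when a mean level of 100 was asked. TSG101, the core subunit that binds viral and cellular late-domain motifs, was 1562 and 1701, and was not called.

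In ESCRT-III, IST1 and CHMP1B rose in KCl, and these 2 proteins are known to form a common polymer on membranes. IST1 went from 2519 to 4296 (0.77 ± 0.09, adjusted p = 5.8e-15) and CHMP1B from 1065 to 1976 (0.89 ± 0.15, adjusted p = 8.6e-09). IST1 was 2678 in SDS, below its rise in KCl (SDS minus KCl -0.68 ± 0.15, adjusted p = 2.9e-05). For CHMP1B the difference of SDS from KCl was -0.22, with an interval of -0.62 to 0.18. CHMP4B was higher on day 0 of KCl, at 4599.5 (0.31 ± 0.09, adjusted p = 9.0e-04), its only call in the 25 comparisons. CHMP2A and CHMP3, which assemble together on CHMP4 filaments and bind VPS4, fell from 2008 to 1379 (-0.54 ± 0.11, adjusted p = 3.1e-06) and from 1969 to 1238 (-0.67 ± 0.11, adjusted p = 2.9e-08). VPS4A fell to 1119 (-0.60 ± 0.12, adjusted p = 8.7e-07) and VPS4B stood at 1922 (-0.21 to 0.19).

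Doxorubicin on day 0 called 3 of 30 members, 2 higher and 1 lower (background 12.5% and 14.2%), with a members' median of -0.022. CHMP1B rose to 1838 (0.79 ± 0.13, adjusted p = 7.1e-08) and TSG101 to 1951 (0.32 ± 0.12, adjusted p = 0.030), and VPS4A fell to 1336 (-0.35 ± 0.12, adjusted p = 0.019). Side by side, the day 0 log2 fold changes of CHMP1B were 0.67 in SDS, 0.89 in KCl and 0.79 in DXR, and those of VPS4A were -0.33, -0.60 and -0.35. All were called, and since the exposures share the untreated libraries these directions are not independent of each other.

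Taken pair by pair, fold changes on day 0 differed between SDS and KCl for 15 of 30 members, where 36.9% of all tested genes differed. Between SDS and DXR 9 differed (27.4% of all) and between KCl and DXR 9 (35.5%). In these tests the error of the shared untreated libraries was counted for each exposure, which makes their SE too large rather than too small. From day 0 to day 1, 7 members differed in SDS (27.7% of all tested genes) and 12 in KCl (34.9%). In each case the move was toward the untreated level or past it. Most of these members were called on day 0, so that direction was likely beforehand. CHMP5 in KCl was not called on day 0 (-0.15) and ended farther from the untreated level on day 1 (0.35). In DXR 0 of 30 differed (3.35% of all), with 1 at an unadjusted p under 0.05.

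**Figure D3:**
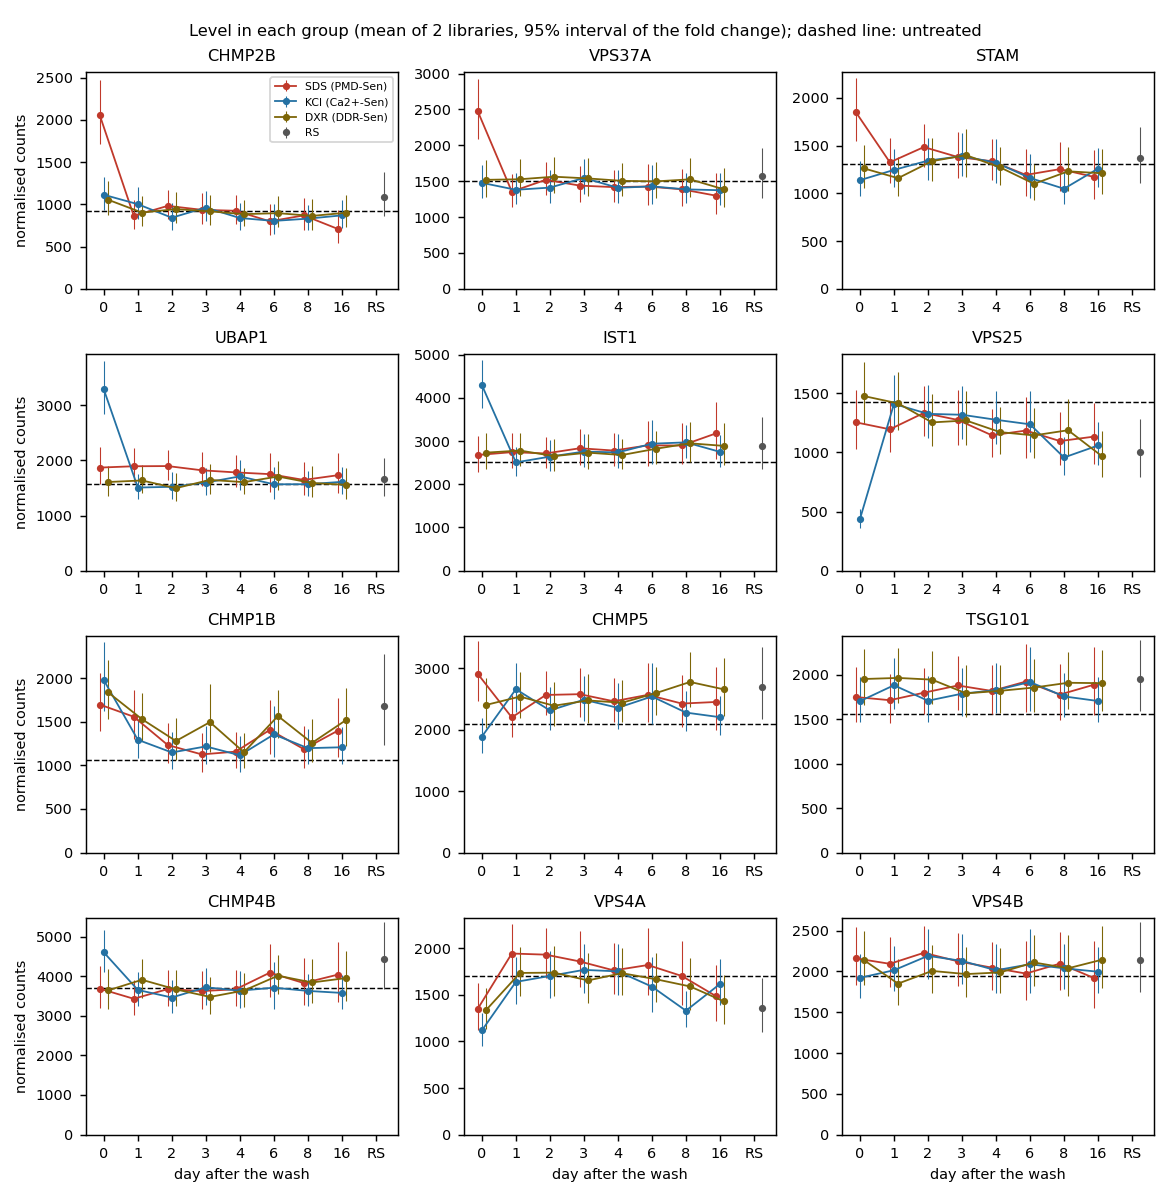
Level in normalised counts (vertical axes from 0) of 12 members on each day after the wash (evenly spaced) and in RS. Points are means of 2 libraries, bars the 95% interval of the fold change applied to the untreated level, and dashed lines the untreated level. CHMP2B, VPS37A and STAM are apart on day 0 of SDS, and UBAP1, IST1 and VPS25 on day 0 of KCl, while CHMP1B lies above the dashed line in all 25 groups.

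After day 0, KCl called few members until day 8. There were 1 higher and 1 lower on day 1 (background 5.12% and 6.81%), CHMP5 rising to 2655 (adjusted p = 0.019) and CHMP3 still low at 1513 (adjusted p = 0.0041). On days 2, 3, 4 and 6, 0 members were called, with 1, 2, 2 and 2 at an unadjusted p under 0.05 and 0 by the deposited adjusted p. All tested genes were called higher and lower at 1.67% and 2.44%, 4.52% and 5.43%, 4.72% and 6.74% and 4.45% and 5.23% on these days. Day 8 had 1 higher and 9 lower, where 14.9% and 17.0% of all tested genes were called. Day 16 had 0 higher and 1 lower (background 5.47% and 5.82%).

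The 9 members lower on day 8 of KCl came from every complex. Those of ESCRT-0 were STAM, from 1303 to 1048 (-0.32 ± 0.12, adjusted p = 0.028), and HGS, to 3215 (-0.29 ± 0.09, adjusted p = 0.0036). VPS37B of ESCRT-I was at 1070.1 (-0.47 ± 0.12, adjusted p = 4.2e-04). In ESCRT-II, VPS25 was at 957 (-0.58 ± 0.12, adjusted p = 2.5e-05) and SNF8 at 851 (-0.42 ± 0.13, adjusted p = 0.0043). All the falls of day 8 but that of VPS25 were under 0.5 on the log2 scale. On day 0 of KCl, VPS25 was at -1.71. STAM, HGS, VPS37B and SNF8 were not called on that day (-0.20, -0.15, 0.13 and 0.15). CHMP6, the ESCRT-III subunit that ESCRT-II contacts, fell to 580.3 (-0.46 ± 0.14), VPS4A to 1330.4 (-0.35 ± 0.11) and VTA1 to 1823 (-0.30 ± 0.10), at adjusted p of 0.0067, 0.0043 and 0.0088. ALIX was the shallowest, at 5987 (-0.20 ± 0.08, adjusted p = 0.043). IST1 was the member called higher, at 2969.6 (0.24 ± 0.09, adjusted p = 0.040). On that day CD14 was at 255.9 and the fibroblast markers summed to 812794, and their part in these falls was not tested. In a test added after the values were seen, 0 of 30 members differed between day 8 and day 16 (0 at an unadjusted p under 0.05, 6.85% of all tested genes called) and 0 between day 8 and day 6 (1 at an unadjusted p under 0.05, 3.26%), so day 8 is not shown to differ from its neighbours for these members.

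In DXR the calls were spread over the course, as they were over all genes. Day 0 held 3 of the members' 18 calls and 16.8% of the calls over all genes. There were 3 higher and 1 lower on day 1 (background 8.12% and 10.5%), 2 higher and 0 lower on day 2 (4.97% and 7.15%), 2 higher and 0 lower on day 6 (10.2% and 13.2%), 2 higher and 0 lower on day 8 (9.83% and 11.2%) and 2 higher and 3 lower on day 16 (12.7% and 16.0%). On days 3 and 4, 0 were called (4.49% and 6.53% and 7.53% and 10.0% of all tested genes), with 3 and 4 at an unadjusted p under 0.05 and 0 by the deposited adjusted p. The share of members called was below that of all genes in the same direction on each DXR day, except among those called higher on days 1 and 2.

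TSG101 was called on days 0, 1 and 2 of DXR. Its level was 1562 in untreated cells and 1951, 1963, 1944, 1789, 1818, 1855, 1908 and 1904 on days 0 to 16 of DXR, a flat course above the untreated level, with adjusted p of 0.030, 0.026 and 0.042 on the days called. It lay above the untreated level in all 25 groups, by 0.12 to 0.33 on the log2 scale, and since all 25 share 1 untreated group this is not 25 separate observations. STAM2 was higher on day 2, at 2153 (0.31 ± 0.11, adjusted p = 0.048), and MVB12B on day 1, at 541 (0.55 ± 0.18, adjusted p = 0.016). VPS28 was called on day 8, at 178 (1.18 ± 0.39, adjusted p = 0.016), between 59.3 on day 6 and 70.5 on day 16. VTA1 was lower on day 1, at 1808 (-0.32 ± 0.11, adjusted p = 0.022).

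CHMP5, which binds VTA1, was called higher 6 times: on days 0 and 2 of SDS, day 1 of KCl and days 6, 8 and 16 of DXR. In DXR its levels were 2399, 2536, 2387, 2473, 2436, 2593, 2773 and 2653 on days 0 to 16 against 2087 in untreated cells, and the highest value, on day 8, had a log2 fold change of 0.41 ± 0.12 (adjusted p = 0.0044). Day 0 of KCl, at 1885, was its lowest group and the only one under the untreated level. As every comparison uses the same untreated group, its calls and directions are not separate observations.

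Few members were called on day 16. SDS had 0, KCl had VPS25 and DXR had 5. All tested genes were called higher and lower at 9.26% and 11.0% in SDS, 5.47% and 5.82% in KCl and 12.7% and 16.0% in DXR. The members' median log2 fold change in absolute size was 0.21 in SDS, 0.11 in KCl and 0.22 in DXR. Their median SE was 0.16, 0.11 and 0.14, so the 0 in SDS does not show that its members changed less than those in DXR. VPS25 was at 1134 in SDS (-0.33 ± 0.17, adjusted p = 0.16), 1059 in KCl (-0.43 ± 0.13, adjusted p = 0.0082) and 967 in DXR (-0.56 ± 0.15, adjusted p = 0.0011), against 1427 untreated. The 3 intervals overlapped (-0.66 to -0.0067, -0.68 to -0.18 and -0.85 to -0.27), and the difference between exposures on day 16 was not tested. In DXR, VPS37B stood at 1082 (-0.45 ± 0.14, adjusted p = 0.0072) and VTA1 at 1747 (-0.37 ± 0.13, adjusted p = 0.017) below untreated. CHMP1B, at 1518 (0.51 ± 0.16, adjusted p = 0.0075), and CHMP5, at 2653 (0.35 ± 0.13, adjusted p = 0.028), stood above it. MVB12B had a similar size in DXR, at 499 (0.43 ± 0.21), without reaching the threshold.

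In replicative senescence, 2 of 30 members were called, 1 higher and 1 lower (background 11.2% and 11.0%), with a members' median of 0.064. CHMP1B went from 1065 to 1678 (0.66 ± 0.23, adjusted p = 0.021) and VPS25 from 1427 to 1004 (-0.51 ± 0.18, adjusted p = 0.023). On day 16 of DXR, set against the same untreated libraries, they were at 1518 and 967. The RS comparison had larger errors than most (a median SE of 0.16 over the members), and smaller changes were not detectable in it. CHMP4B was 4439.9 (0.26 ± 0.14, adjusted p = 0.18), CHMP5 2697 (0.37 ± 0.16, adjusted p = 0.078) and VPS4A 1364 (-0.32 ± 0.16, adjusted p = 0.13). 

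CHMP1B was the member called most often, 8 times and always higher, and VPS25 was called lower 5 times. CHMP1B stood at 1065 in untreated cells, at 1697, 1557, 1233, 1125, 1157, 1406, 1186 and 1397 on days 0 to 16 of SDS, at 1976, 1293, 1148, 1217, 1116, 1354, 1197 and 1207 in KCl and at 1838, 1529.6, 1279, 1495, 1149.8, 1566, 1257 and 1518 in DXR. The day 0 value was the highest of each course, and the lowest fell on day 3 of SDS and on day 4 of KCl and DXR. CHMP1B has a single exon (chr18:11851396-11854449, plus strand in GENCODE 29), of which 18.1% overlaps an antisense gene listed at 0. VPS25 (chr17:42773436-42779599, plus strand) shares no exon base with another gene. CHMP6 was below the untreated level in 23 of 25 groups and IST1 above it in 24, with 1 and 2 calls. All 25 comparisons share 1 untreated group, so these tallies and the repeated calls of CHMP1B and VPS25 are not separate observations. The share of all tested genes as one-sided or called as often was not computed.

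**Figure D4:**
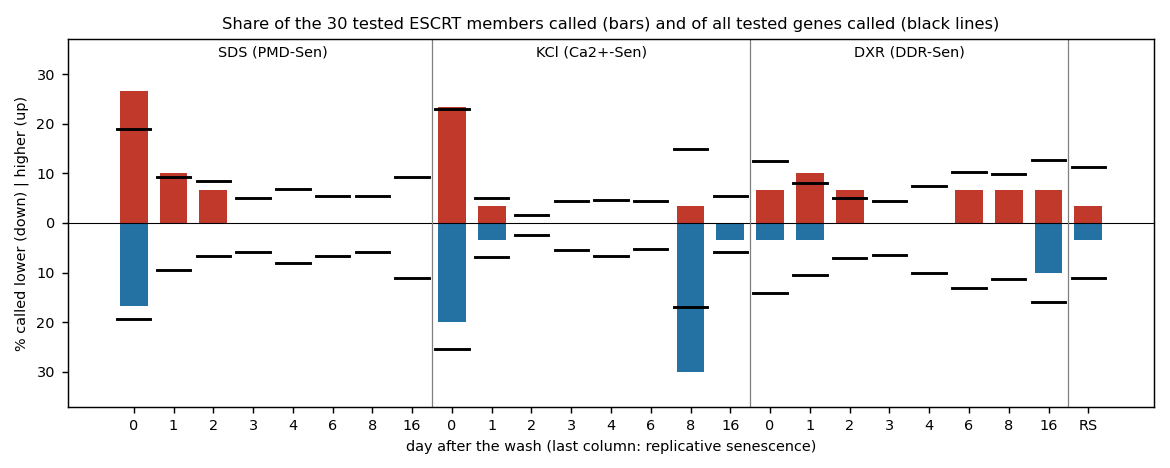
Percent of the 30 tested members called higher (upward bars) or lower (downward bars) in each comparison, with the percent of all 15479 tested genes called in the same direction as black lines. The members exceed the line most clearly on day 8 of KCl among lower calls (9 of 30), and within SDS show no bars from day 3 on.

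Over the 8 days of each exposure, 13 of the 30 members were called at least once in SDS, 21 in KCl and 10 in DXR, where 55.1%, 63.1% and 47.8% of all tested genes were. The order of the exposures is thus that of all genes. In SDS 13 of the members' 18 calls fell on day 0, in KCl 13 of 26 and in DXR 3 of 18, and of the calls over all genes 27.0%, 34.9% and 16.8% did. Of the 30, 4 were called in none of the 25 comparisons. The share of all tested genes called in none was not computed, so this count is not read as a trait of the machinery. The 4 were VPS37C (log2 fold changes from -0.29 to 0.22), MITD1, which acts at the midbody (-0.41 to 0.28), VPS4B (-0.068 to 0.20) and PDCD6 (-0.18 to 0.44). MITD1 and PDCD6 had low levels (279.6 and 249 in untreated cells) and wide errors, whereas VPS4B was well measured, at 1940.0. VPS4B stood at 2161, 2094, 2229, 2124, 2047, 1974, 2096 and 1919.7 on days 0 to 16 of SDS, at 1922, 2015, 2191, 2129.6, 2014, 2089, 2039 and 1997 in KCl and at 2139, 1851, 2007, 1968, 1988, 2110.2, 2039 and 2145 in DXR, and at 2137 in RS. VPS4A was less even, with 1352, 1945, 1933, 1859.5, 1763, 1821, 1703 and 1488 in SDS, 1119, 1639.8, 1704, 1769, 1753, 1589, 1330.4 and 1618 in KCl and 1336, 1736, 1739, 1656, 1734, 1668, 1591 and 1431 in DXR.

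Genes that work with the machinery held larger single changes than its members. Of 35 such partners 34 were tested. On day 0 the calls were 10 higher and 4 lower in SDS (19.0% and 19.3% of all tested genes), 15 higher and 7 lower in KCl (23.0% and 25.5%) and 6 higher and 3 lower in DXR (12.5% and 14.2%), and in RS 4 higher and 4 lower (11.2% and 11.0%), with medians of 0.10, 0.24, 0.030 and 0.060. Whether this differs from the members' counts was not tested. The deubiquitinases USP8, STAMBP and STAMBPL1, which act on ESCRT-0 and its cargo, moved in both directions. STAMBPL1 was 2027 in untreated cells and lower on day 0 of SDS (845, -1.26 ± 0.17), KCl (1544, -0.39 ± 0.11) and DXR (1330.5, -0.61 ± 0.13) and in RS (835, -1.28 ± 0.23), at adjusted p of 9.6e-13, 9.5e-04, 4.7e-05 and 1.0e-06. STAMBP, at 959.5 untreated, was lower on day 0 of KCl (462, -1.06 ± 0.15, adjusted p = 8.9e-12), higher in DXR (1494, 0.64 ± 0.13, adjusted p = 1.4e-05) and not called in SDS (1121). USP8, at 1508 untreated, was higher on day 0 of SDS (1899.7, 0.33 ± 0.13, adjusted p = 0.024) and KCl (2449, 0.70 ± 0.11, adjusted p = 2.9e-10), not called in DXR (1379), and lower on day 16 of SDS (1064, adjusted p = 0.011) and DXR (1089, adjusted p = 0.0052).

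Arrestin-like adaptors and ubiquitin ligases around ESCRT turned in either direction. ARRDC4, also a gene that responds to glucose, was 3079 in untreated cells, 1532 on day 0 of SDS (-1.01 ± 0.16, adjusted p = 5.1e-09), 337 on day 0 of KCl (-3.19 ± 0.43, adjusted p = 1.8e-12) and 8608 in RS (1.48 ± 0.34, adjusted p = 1.6e-04). On day 0 of DXR it was 2564 and not called (-0.26 ± 0.37, adjusted p = 0.68). On day 16 it was 10204 in SDS (1.73 ± 0.19, adjusted p = 6.4e-17), 11075 in DXR (1.85 ± 0.16, adjusted p = 2.1e-30) and 5034 in KCl, the last not called (0.71 ± 0.28, adjusted p = 0.086). ARRDC3 fell in KCl (-1.08, adjusted p = 6.1e-13) and ARRDC2 rose in DXR (1.44, adjusted p = 3.4e-09). The ligase NEDD4L rose in KCl (1.50, adjusted p = 8.0e-27). TOM1, an endosomal adaptor, rose in SDS (1.22, adjusted p = 2.1e-24), where VPS37D, a further VPS37 paralogue, fell (-1.37, adjusted p = 7.9e-04). ULK3, a kinase that delays the last step of division through ESCRT-III, fell in KCl (-1.53, adjusted p = 1.1e-11), and TOM1L1 was lower in RS (-1.07, adjusted p = 0.0024).

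CEP55, which brings ALIX and TSG101 to the midbody, was lower on days 0 and 16 of each exposure and in RS. It stood at 1260.4 in untreated cells, and at 232, 359 and 45.4 on day 0 of SDS, KCl and DXR, at 147, 610.3 and 77.8 on day 16, and at 65.2 in RS. The log2 fold changes were -2.44 ± 0.45, -1.81 ± 0.15 and -4.80 ± 0.19 on day 0 and -4.27 ± 0.81 in RS (adjusted p = 5.7e-07, 1.0e-30, 1.9e-133 and 2.4e-06). Of 10 genes of the midbody and cytokinesis, CEP55 included, 9 were tested. All 9 were lower on day 0 of SDS (median -2.44) and of DXR (-4.28) and in RS (-4.34), and on day 0 of KCl 8 were lower and 1 higher (-1.54). All tested genes were called lower at 19.3%, 14.2%, 11.0% and 25.5% in these groups, and higher at 23.0% on day 0 of KCl. In SDS 4 of the 9 were lower on day 1 (-0.39), 5 on day 2 (-0.33) and all 9 on day 16 (-2.71). All tested genes were called lower at 9.51%, 6.69% and 11.0% on those days. The medians of the ESCRT members lay between -0.11 (DXR day 16) and 0.12 (SDS day 2) over the 25 comparisons.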

How the data were processed

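mRNA of WI-38 cells was sequenced in 52 libraries, 2 independent samples a group. Per the labels, the authors' processing named Trim Galore, HISAT2, HTSeq, featureCounts and DESeq2 with genome build GRCh38 (hg38); versions, annotation and strand setting are not given in the sources used here. The 52 deposited files hold 25 distinct tables, 1 for each treated group and RS. In 24 groups both files were the same, and 4 files held the RS table. For each gene the authors deposited a mean of normalised counts (a signal), a log2 fold change against untreated cells with its SE on the log2 scale, and a p-value with an adjusted p-value. These columns are the authors' comparisons and were used because no single-library value was given. A row naming no gene was dropped from 23 tables.

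Group levels were computed from mean and fold change and scaled to the RS table by the median untreated ratio of 8645 genes above 200 in every table. Wald p-values from fold change and SE were adjusted (Benjamini-Hochberg) over 15479 genes with a mean level of at least 10. Differences of 2 tables were divided by the root of their summed squared SE. The design assumed no single-library counts, and replicate number was taken from the labels. P-values rest on the spread between 2 libraries a group; whether these were separate cultures is not given.

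Level series, mostly in the exposure concerned, were given for CHMP4B, VPS4A and VPS4B and, by rule, for the 2 called members with the largest rise and fall on days 0 and 16 and in RS (CHMP4A by its range). The full courses of VPS25 and VPS37B in DXR and of CHMP4B in KCl and DXR were not given in the text. Partners were named at a log2 fold change of at least 1 on day 0 or in RS. USP8, whose changes there were smaller, was named beside the other deubiquitinases. The members, lists and motifs were chosen with earlier results of these data known. Calling and scaling were tested on simulated data. Statistics used SciPy 1.17.1 and pandas 2.3.3 under Python 3.11.15, and figures matplotlib 3.10.9. Columns of other per-sample values numbered 0.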

Additional observations from a re-analysis of the deposited data

Results flagged for a closer look

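Fold changes on day 0 that differed between exposures by a test of the difference (adjusted p under 0.05 over all tested genes) are collected here, each as the difference on the log2 scale. Between SDS and DXR, the log2 fold change was higher in SDS for CHMP2B (0.96), VPS37A (0.70), MVB12A (0.65), STAM (0.55) and STAM2 (0.54) and lower in SDS for PDCD6IP (-0.37), VPS37B (-0.52), CHMP3 (-0.53) and MVB12B (-0.89). Between SDS and KCl, the log2 fold change was higher in SDS for VPS25 (1.53), MVB12A (1.02), CHMP2B (0.89), VPS37A (0.74), STAM (0.70), VPS36 (0.70), CHMP5 (0.62) and CHMP2A (0.43) and lower in SDS for CHMP4B (-0.32), PDCD6IP (-0.35), CHMP1A (-0.64), VPS37B (-0.67), IST1 (-0.68), UBAP1 (-0.81) and MVB12B (-1.08). Between KCl and DXR, the log2 fold change was higher in KCl for VPS28 (1.78), UBAP1 (1.03), IST1 (0.65), STAM2 (0.52) and CHMP4B (0.34) and lower in KCl for VPS36 (-0.73), CHMP2A (-0.73), CHMP3 (-0.86) and VPS25 (-1.76). The SE of these differences ranged from 0.13 for CHMP4B and PDCD6IP to 0.59 for VPS28, the member with the lowest level.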

How the results depend on the processing

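No paired analysis was possible because the files hold no value of a single library, and leaving out 1 replicate at a time was not run for the same reason. The counts of members called stayed within 1.5 times of the reported ones under the deposited adjusted p in all 25 comparisons. Of 18 single fold changes tested under other settings, TSG101 on day 0 and CHMP5 on day 16 of DXR lost the call without a filter on low levels. The direction of the 18 could not turn under these settings. The smallest of them was 0.32 in size, and only centring and library totals move a fold change, by less than that. Counts of differing members stayed within 1.5 times under every setting tried. Asking for a log2 fold change of at least 0.5 left 6 members on day 0 and 1 on day 1 of SDS, 0 on day 2 of SDS, 0 on day 1, 1 on day 8 and 0 on day 16 of KCl, and 1, 2, 0, 1, 1 and 2 on days 0, 1, 2, 6, 8 and 16 of DXR. An adjusted p under 0.01 left 0 on day 2 of SDS, 1 on day 1 of KCl, 1, 1, 0, 1, 1 and 3 on days 0, 1, 2, 6, 8 and 16 of DXR and 0 in RS. A mean level of at least 100 gave 1 on day 3 of SDS and 1 on day 8 of DXR. Without a filter there were 1 on day 2 of SDS and 0 on day 2 of DXR. Centring on the median left 1 on day 2 of DXR. Scaling by library totals gave 5 on day 1 and 1 on day 2 of SDS and 1 on day 4 of DXR. The cause was not tested where a filter or a scaling moved a count. Centring moved fold changes by at most 0.028 and library totals by at most 0.062 on the log2 scale.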
